A study of Homo sapiens with 8 samples.

Results

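The 5 linker histone genes HIST1H1A, HIST1H1B, HIST1H1C, HIST1H1D and HIST1H1E of chromosome 6 were examined as RNAs bound by TIA1 and by RBFOX2 in HEK293T, a cultured human line of embryonic kidney origin with the SV40 large T antigen. Members were the peaks that overlapped a span of 2 kb around each gene, in hg19 and on the strand of the gene. The spans were 26017 to 26019 kb for HIST1H1A, 26055 to 26057 kb for HIST1H1C, 26234 to 26236 kb for HIST1H1D and 27834 to 27836 kb for HIST1H1B, all on the minus strand, and 26156 to 26158 kb on the plus strand for HIST1H1E. They held 24 of the 7442 peaks deposited for both proteins, 8 from TIA1 and 16 from RBFOX2. The genes were chosen by these peaks, with their folds and p-values in view, so the number of peaks, their folds and their p-values are given as descriptions, with no test.

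The peaks come from eCLIP, in which protein is crosslinked to RNA by ultraviolet light and immunoprecipitated, and the RNA is sequenced. There were 2 TIA1 clip and 2 TIA1 input libraries, and 2 RBFOX2 clip and 2 RBFOX2 input libraries. All cells received 600 mJ of ultraviolet light and a replicate is described as 20000000 cells. An anti-HA tag antibody is named for the clip libraries and no antibody for the inputs. The protocol texts write HEK293 where the sample labels write HEK293T, 1 text names beads carrying TIA1 for all libraries, and the replicates appear both as biological and as technical ones. The authors deposited 1 list per protein that joins both replicates, so the lists used here give no value per library, no spread between replicates and no sequencing depth. Each peak carries the authors' own log2 fold, read here as clip over input, and −log10 p. The lowest log2 fold was 3.0 in both lists.

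Linker histones sit on the nucleosome where DNA enters and leaves, and they compact chromatin. The 5 genes are replication-dependent: they have no introns, are transcribed mainly in S phase, and their mRNAs end in a conserved stem-loop in place of a poly(A) tail. The stem-loop is bound by SLBP, a protein that the study's design text also names and that was not analysed here. TIA1 prefers U-rich RNA and acts in splicing and in stress granules, and RBFOX2 is a splicing regulator that binds GCAUG.

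The beginnings of the 5 coding sequences are shown because the family is closely related and reads from one member could resemble another. They are from the GENCODE 29 transcripts, 5′ to 3′, with the start codon in capitals.
HIST1H1A: ATGtctgaaacagtgcctcccgcccccgcc
HIST1H1B: ATGtcggaaaccgctcctgccgagacagcc
HIST1H1C: ATGtccgagactgctcctgccgctcccgct
HIST1H1D: ATGtcggagactgctccacttgctcctacc
HIST1H1E: ATGtccgagactgcgcctgccgcgcccgct
The coding lengths ran from 642 bases in HIST1H1C to 681 bases in HIST1H1B. HIST1H1E and HIST1H1C, the members with peaks, had the highest identity of the 10 pairs, 81.0% over 636 aligned bases. The lowest was 70.0%, between HIST1H1A and HIST1H1D.

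Exact stretches shared between members were short. The longest run common to HIST1H1C and HIST1H1E had 29 bases, and the one common to HIST1H1B and HIST1H1E had 37 bases, the longest of any pair.
HIST1H1C and HIST1H1E: ggtctcaagagcctggtgagcaagggcac
HIST1H1B and HIST1H1E: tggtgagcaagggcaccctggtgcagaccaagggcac
Of the 725 words of 30 bases in the HIST1H1E transcript, 8 occurred in another GENCODE gene, all in HIST1H1B, or 1.10%. HIST1H1C shared 6 of 613 words with HIST1H1B, 0.979%. HIST1H1B had the highest share, 14 of 652 words or 2.15%, with HIST1H1C and HIST1H1E. HIST1H1A and HIST1H1D shared none (0 of 619 and 0 of 637 words). Nothing in the labels says how reads with several matches were treated, so a peak on a shared run would be uncertain. Whether any peak lies on such a run was not tested, because no hg19 sequence was at hand.

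The peaks lay on 2 of the 5 genes. HIST1H1E, which encodes histone H1.4, had 7 TIA1 and 16 RBFOX2 peaks. HIST1H1C, which encodes H1.2, had 1 TIA1 peak and no RBFOX2 peak (0). HIST1H1A, HIST1H1B and HIST1H1D, which encode H1.1, H1.5 and H1.3, had none in either list (0 each). No peak lay on the opposite strand in any of the 5 spans (0 in both lists). A gene without a peak cannot be read as unbound, since weaker sites below the authors' limits are not listed and the depth is unknown.

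In bases, TIA1 peaks covered 111 on HIST1H1E and 83 on HIST1H1C, and RBFOX2 peaks covered 196 on HIST1H1E. Covered length separated the lists less than the number of peaks did. The HIST1H1E sites were split into many short abutting peaks, which affects the number of peaks and not the covered length. Summed over the family, TIA1 peaks covered 194 bases and RBFOX2 peaks 196, and the TIA1 sum includes the 83 bases on HIST1H1C.

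**Figure D1:**
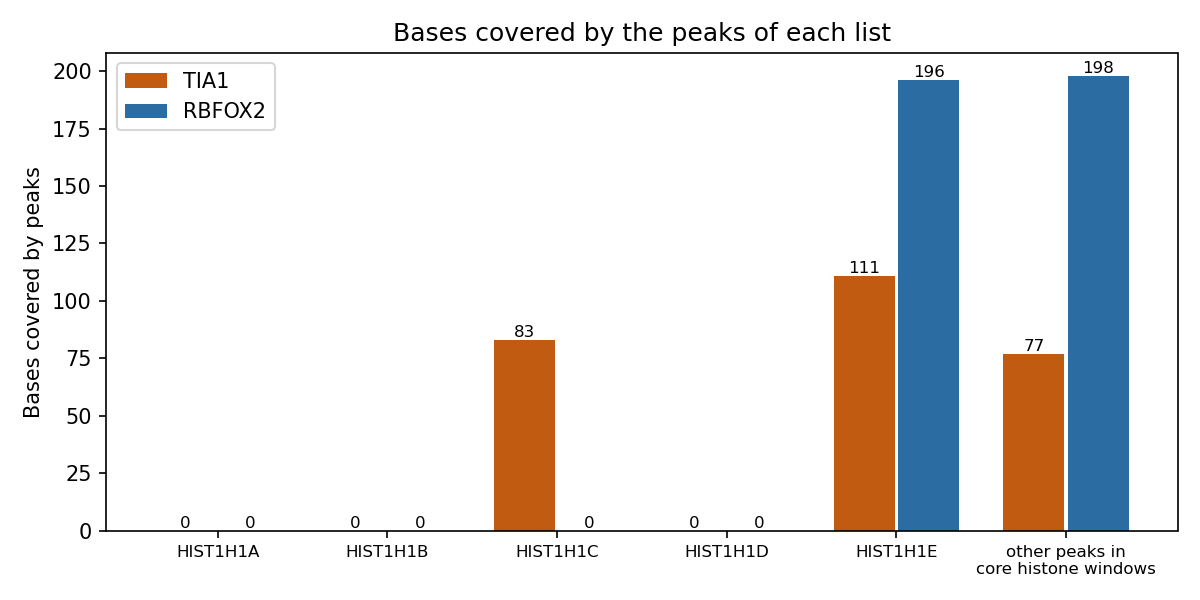
Bases covered by the peaks of each list (bars from 0) on the 5 linker histone genes and in the rest of the core histone windows. HIST1H1E is covered in both lists, 111 bases in TIA1 and 196 in RBFOX2, HIST1H1C in TIA1 alone with 83, and the other members in neither.

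On HIST1H1E the TIA1 peaks formed 1 unbroken site of 111 bases at chr6:26156595-26156705. Its 7 abutting peaks were 3 to 30 bases wide. From 5′ to 3′ along the RNA their log2 folds were 4.05, 3.86, 3.78, 3.74, 3.65, 3.50 and 3.09. The fold was thus highest at the 5′ edge, where it corresponds to 16.6-fold, and lower in each following peak down to 8.53-fold at the 3′ edge. Among the 24 TIA1 sites with 5 or more peaks, with peaks within 50 bases joined, 1 showed such a fall at every step, 4.17% of them, and it was this one. Another 1 of the 24 rose at every step. The pattern was counted with the folds of this site in view, so these counts are a description and no test.

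RBFOX2 had a pair of sites on HIST1H1E, 250 bases apart and with 8 peaks each. The first, at chr6:26156589-26156713, began 6 bases before the TIA1 site and ended 8 bases after it. Its log2 folds from 5′ to 3′ were 3.27, 3.17, 3.11, 3.08, 3.08, 3.04, 3.05 and 3.04, and a gap of 9 bases separated the last peak from the others. Most of these values stood close to the authors' lower limit, and 5 of the 8 peaks were within 0.1 of it.

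The second RBFOX2 site, at chr6:26156964-26157043, had no TIA1 counterpart, and it began 258 bases downstream of the TIA1 site. Its log2 folds were 3.51, 3.54, 3.44, 3.59, 3.40, 3.24, 3.17 and 3.004. The median was 3.42, against 3.08 in the first RBFOX2 site. The highest, 3.59 or 12.1-fold, was in the fourth peak, and the lowest was at the 3′ edge. Of the 89 RBFOX2 sites with 5 or more peaks, 2 fell at every step (2.25%), and neither HIST1H1E site was among them.

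**Figure D2:**
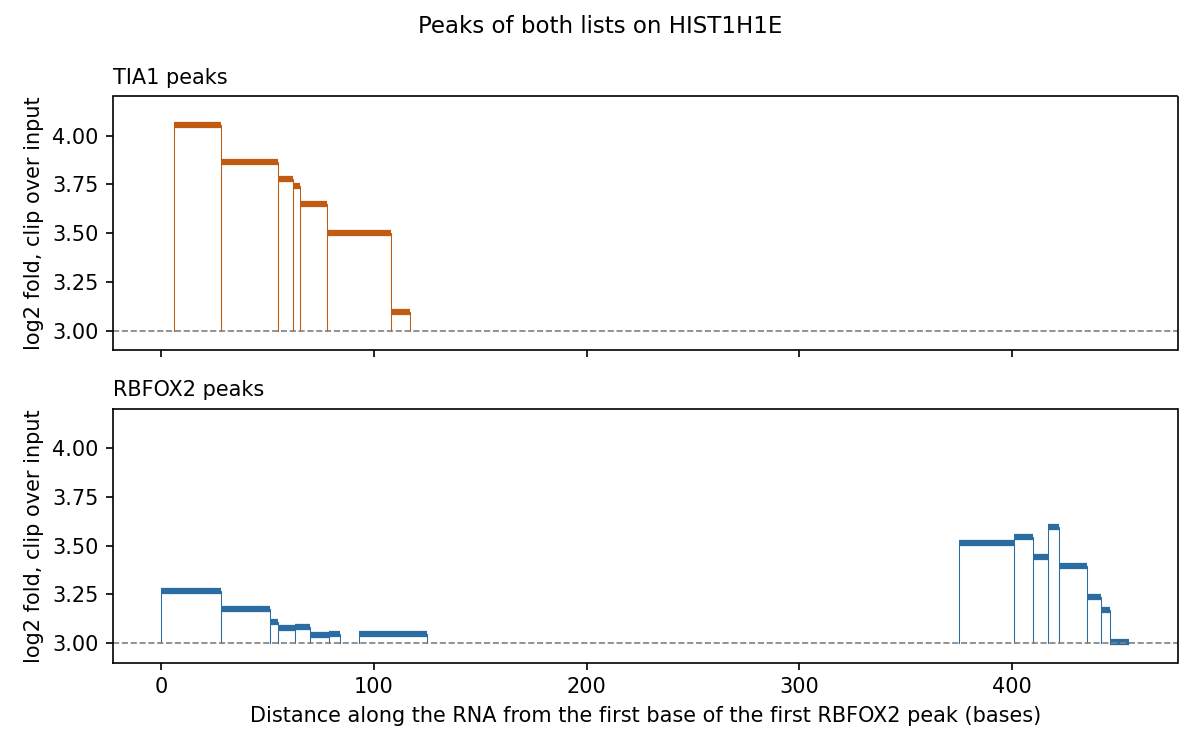
Log2 fold, clip over input, of each TIA1 peak (upper panel) and RBFOX2 peak (lower panel) on HIST1H1E, against distance along the RNA in bases from the first base of the first RBFOX2 peak. Each thick line is 1 peak over its own width, and the dashed line at 3 is the lower limit of both lists. TIA1 has folds of 4.05 at the 5′ edge down to 3.09 at the 3′ edge of its 1 site, while RBFOX2 has a first site of 3.04 to 3.27 beneath it and a second of 3.004 to 3.59 without TIA1.

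The peaks of both proteins met on the upstream part of HIST1H1E. All 7 TIA1 peaks there overlapped an RBFOX2 peak, where 24.0% of the whole TIA1 list did. From RBFOX2, 8 of 16 peaks met a TIA1 peak, those of the first site, where 21.7% of the whole RBFOX2 list did. All these peaks had the highest −log10 p of the lists, 400. Of all peaks with that value, the members included, 35.4% in TIA1 and 55.2% in RBFOX2 overlapped the other list. Abutting peaks of 1 site are not separate observations, so the counts on the members amount to 1 shared site, 1 RBFOX2 site alone and, with HIST1H1C, 1 TIA1 site alone. In bases, 102 were covered by both lists, 91.9% of the TIA1 bases and 52.0% of the RBFOX2 bases on HIST1H1E. Over the lists as a whole, shared bases made up 23.5% of TIA1 and 15.9% of RBFOX2 bases.

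The split points within the shared site also coincided in part. Of the 6 inner boundaries of the TIA1 site, 2 fell at the same base as a boundary in the RBFOX2 site, after positions 26156616 and 26156643. The other TIA1 boundaries had no such match. How often boundaries coincide at other sites covered by both lists was not counted, so whether this is usual is not known.

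At every one of the 102 shared bases the TIA1 peak had the higher log2 fold. The bases carry the folds of 7 TIA1 and 8 RBFOX2 peaks of 1 shared site, so they are not separate observations. TIA1 minus RBFOX2 ran from 0.048 at the lowest to 0.79 at the highest, with a median of 0.69. No listed fold was below 3.0 and the RBFOX2 folds of this site were 3.04 to 3.27. A listed TIA1 peak could therefore hardly have been lower here. At all 49317 bases shared by the lists the median difference was 0.026, and TIA1 was the higher at 52.0% of them. A difference as large as the HIST1H1E median occurred at 10.9% of them. Between joined sites, the highest log2 folds at HIST1H1E differed by 0.79, and 45 of the 574 TIA1 sites that met an RBFOX2 site had a larger difference. The proteins were precipitated separately and each was set against its own inputs, so the difference is one between deposited values, and its error cannot be given.

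**Figure D3:**
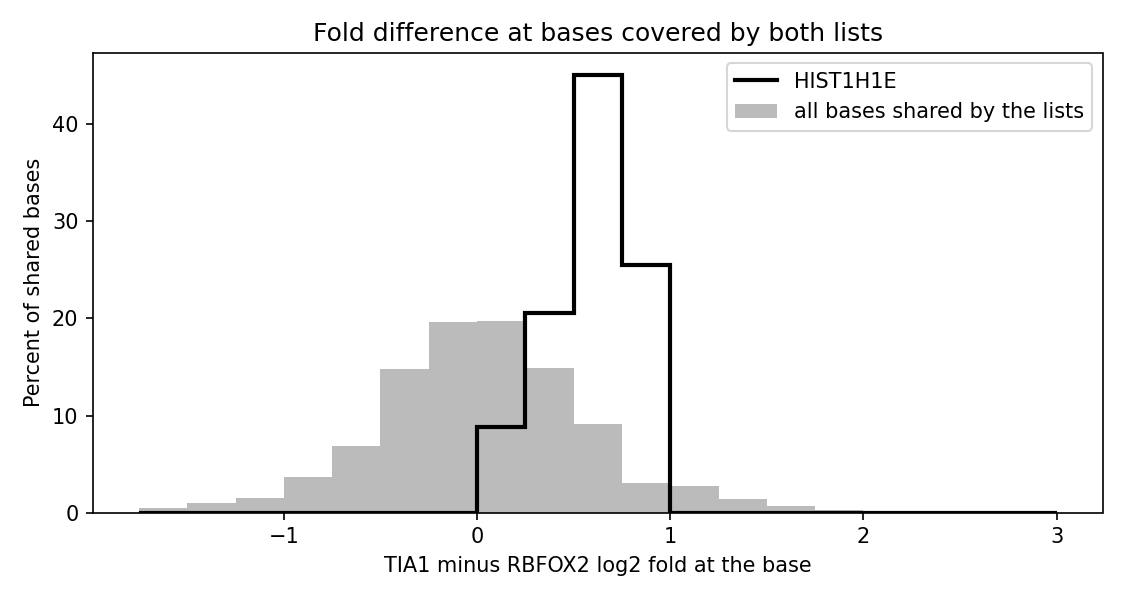
TIA1 minus RBFOX2 log2 fold at each base covered by both lists, in bins of 0.25, as a percent of shared bases. The 102 bases on HIST1H1E (black line) lie between 0.048 and 0.79, while all 49317 shared bases (grey) centre on a median of 0.026. The HIST1H1E bases belong to 1 site and are not separate observations.

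HIST1H1C had 1 peak, from TIA1, at chr6:26056582-26056664 on the minus strand. It was 83 bases wide and not split, with a log2 fold of 3.45, or 10.9-fold. This lay below 6 of the 7 HIST1H1E peaks of the same list. The nearest RBFOX2 peak was 47.2 kb from the span of HIST1H1C, on the other strand, so no RBFOX2 value stands beside it.

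Every linker histone peak had a −log10 p of 400, the upper limit of the lists. That was 8 of 8 in TIA1, where 2.02% of all peaks reached it, and 16 of 16 in RBFOX2, where 0.686% did. Between this limit and the other peaks there was an empty range, since the next highest −log10 p was 86.8 in TIA1 and 83.8 in RBFOX2. The value of 400 may therefore be a set ceiling and not a measured size, which the lists do not state. Of the 29 RBFOX2 peaks at the limit, 16 were on HIST1H1E, which is 55.2% of the peaks and 28.0% of the bases at the limit. Of the 65 TIA1 peaks at the limit, 8 were on linker histone genes, 12.3% of the peaks and 10.7% of the bases. With peaks joined, 20 of all 2413 TIA1 sites and 8 of all 2749 RBFOX2 sites reached the limit. On these genes were 2 of the 20 TIA1 sites and 2 of the 8 RBFOX2 sites. No other RBFOX2 site held as many peaks at the limit as either HIST1H1E site, with 8 each against at most 5 elsewhere. In TIA1 the HIST1H1E site came second with 7, after a site on chromosome 1 with 15. Both rankings count abutting peaks, so they depend on how a site was split. In bases, the RBFOX2 sites on HIST1H1E covered 116 and 80 of the 699 at the limit, and sites were not ranked by bases.

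The linker histone median log2 fold was 3.69 in TIA1, above the list median of 3.36, and 3.17 in RBFOX2, below the list median of 3.48. Of the TIA1 peaks, 1 of 8 reached a log2 fold of 4, against 9.21% of the list. None of the 16 RBFOX2 peaks did (0), against 19.3% of the list. Apart from the HIST1H1C peak, these peaks are pieces of sites on HIST1H1E, so the medians and shares describe 2 sites per list. By site, the highest log2 folds were 4.05 on HIST1H1E and 3.45 on HIST1H1C in TIA1. In RBFOX2 they were 3.27 and 3.59, both on HIST1H1E. The first TIA1 peak on HIST1H1E ranked 255 by fold among 3215, and the highest RBFOX2 peak ranked 1796 among 4227. A −log10 p depends on how many reads cover a site as well as on its fold, and the number of reads is not in the lists.

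**Figure D4:**
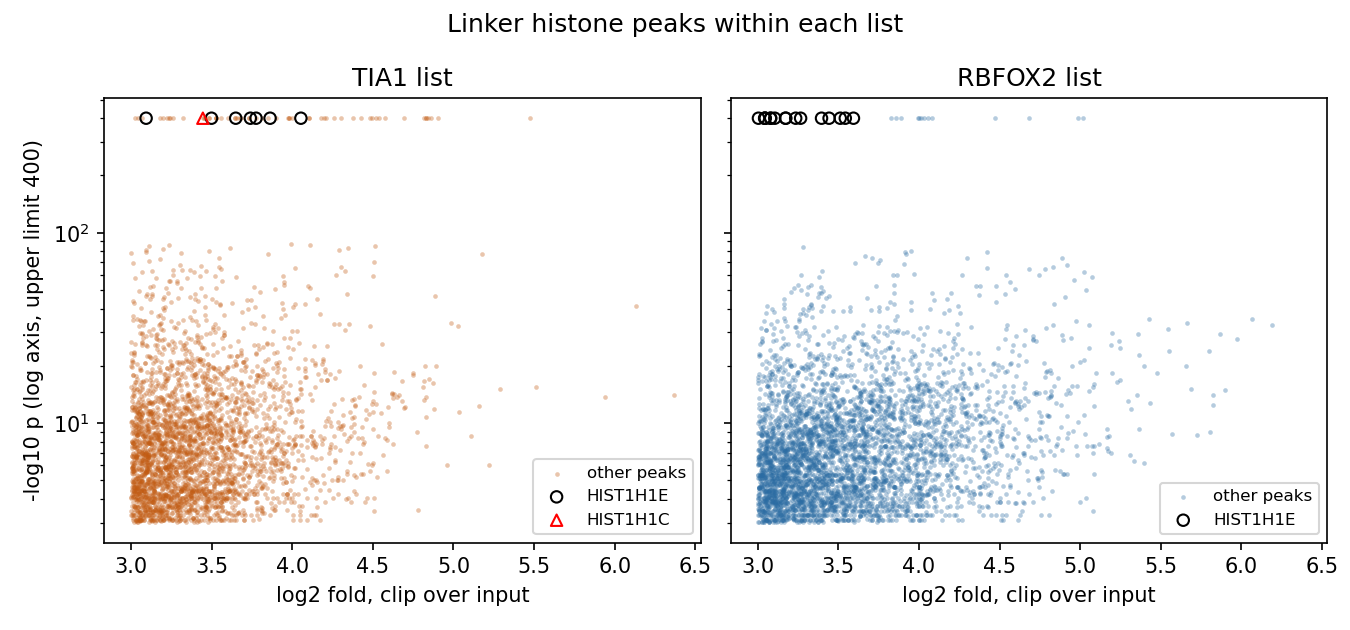
Log2 fold, clip over input, against −log10 p (log axis) for every peak of the TIA1 list (left) and the RBFOX2 list (right). HIST1H1E peaks (open circles) and the HIST1H1C peak (triangle, TIA1 panel) all lie at the upper limit of 400, at log2 folds of 3.09 to 4.05 in TIA1 and 3.004 to 3.59 in RBFOX2.

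The core histone genes, which encode the proteins of the nucleosome core, lie around the linker genes on chromosome 6. Apart from the members, the windows from 26 to 26.3 Mb and from 27.7 to 27.9 Mb held 1 TIA1 peak and 5 RBFOX2 peaks. These were not assigned to single genes, and the windows also hold genes other than histones. None of them reached the upper limit of −log10 p (0 of 1 and 0 of 5). Over the whole lists, 2.02% of TIA1 and 0.686% of RBFOX2 peaks did. With so few peaks in the windows, no contrast with the members can be drawn from this. A TIA1 peak between the windows, at chr6:27114550-27114618, did reach the limit. That peak was outside this comparison and was not assigned to a gene, so core histone genes beyond the windows are not covered here.

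Here too 1 site was covered in both lists. On the plus strand TIA1 had a peak at chr6:27777846-27777922, with a log2 fold of 3.51 and a −log10 p of 31.9. RBFOX2 had abutting peaks at chr6:27777847-27777901 and chr6:27777902-27777924, with log2 folds of 3.39 and 3.15 and −log10 p of 38.9 and 28.1. The other RBFOX2 peaks stood alone. On the plus strand a peak at chr6:26104177-26104214 had a log2 fold of 3.06 and a −log10 p of 7.69. On the minus strand a peak at chr6:26199434-26199473 had a log2 fold of 3.06 and a −log10 p of 11.96. The last, at chr6:26250768-26250809 on the minus strand, had the highest log2 fold of the windows, 3.88, with the lowest −log10 p, 3.28. It lay 14.8 kb beyond the HIST1H1D span and was the peak nearest to that member in the RBFOX2 list. No further peak of either list came within 1 kb of a member's span.

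The member transcripts were also searched for the letters associated with each protein. GCATG, the DNA spelling of the RBFOX2 element, occurred in none of the 5 transcripts (0 each), searched on the strand of the RNA, and was present in 46.1% of the 9315 GENCODE protein-coding transcripts of 600 to 800 bases. The run TTTT occurred in 1 of the 5, HIST1H1E, at 1 place, and in 78.4% of the 9315. It stands in the last bases of the GENCODE transcript, in the 3′ part of the gene where the stem-loop begins, shown with the run in capitals.
HIST1H1E, positions 725 to 754: gcccaacacaacccaaaggctcTTTTcaga
The share of T was 11.1% in HIST1H1E, 13.9% in HIST1H1C, 14.7% in HIST1H1A, 13.5% in HIST1H1D and 11.2% in HIST1H1B. The median was 22.4% in the 9315 transcripts, and 0.236% of them had less T than HIST1H1E. The 4 other members are annotated with their coding sequence alone, so their untranslated ends were not searched. Where these letters stand relative to the peaks was not tested, and their absence says nothing about either protein.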

How the data were processed

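Data were 2 peak lists, 1 for TIA1 (3215 peaks) and 1 for RBFOX2 (4227), each tied by the sample descriptions to 2 clip and 2 input libraries. The deposited values are a −log10 p and a log2 fold per peak, units inferred from their ranges because the lists have no header. Per the submitters' processing notes, the build was hg19 and the tools were STAR 2.4.0i, SAMtools 1.6, cutadapt 1.14 and UMI-tools 1.0.0. The roles of these tools and the peak caller are not stated in the labels.

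Peaks were assigned by overlap of at least 1 base with the span on the gene strand. Overlap between lists needed 1 shared base on the same strand, and sites joined peaks within 50 bases. Coordinates are 1-based. The counting was tested on simulated lists. Transcript sequences came from GENCODE 29 (GRCh38), used without coordinates; coding sequences were aligned globally, with identity counted over aligned bases. Python 3.11.15, numpy 2.4.6, scipy 1.17.1 and biopython 1.88 were used. All 5 members were named, whatever their values, and so were all peaks in the core histone windows, beyond a rule that asked for the 3 of highest −log10 p per list. Members, windows and measures were chosen with earlier results of these data known. Alternatives were limits on fold, −log10 p and width, joined peaks, wider spans, containment, both strands, other overlap rules and leaving out each member.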

Additional observations from a re-analysis of the deposited data

How the results depend on the processing

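With a log2 fold of at least 4 in both lists, 1 TIA1 peak of 22 bases was left, with 0% of peaks and 0% of bases overlapping, and 0 RBFOX2 peaks and 0 bases, so RBFOX2 shares and medians could not be computed. Joining peaks within 50 bases gave 2 TIA1 and 2 RBFOX2 sites, and the share of TIA1 sites overlapping RBFOX2 was 50%, against 87.5% of peaks as reported. Leaving out peaks under 20 bases gave 4 TIA1 and 4 RBFOX2 peaks. Over all members, 37.0% of TIA1 bases were then shared, against 52.6% as reported. RBFOX2 peaks covered 109 bases, against 196 as reported. Without HIST1H1C, TIA1 covered 111 bases, 100% of its peaks overlapped RBFOX2 and 91.9% of its bases were shared. Without HIST1H1E, TIA1 kept 1 peak and 83 bases with 0% overlap and 0% shared bases, and RBFOX2 kept 0 peaks and 0 bases. The changes in number of peaks and bases follow from fewer or joined peaks by construction. Requiring at least 50% of each peak to be shared lowered the overlapping share to 50% of TIA1 peaks, against 87.5% as reported, and to 25% of RBFOX2 peaks, against 50% as reported. No paired analysis was possible because the lists give values for both replicates jointly, which also means that neither replicate could be left out. Unknown depth limits every comparison between lists.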

Other observations

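On chromosome 6 between the core histone windows, from 26.3 to 27.7 Mb, each list held 1 peak, a region looked at after the values were seen. The TIA1 peak, at chr6:27114550-27114618 on the minus strand, was 69 bases wide and also stood at the −log10 p limit of 400, with a log2 fold of 3.52 against 3.45 for the HIST1H1C peak. The RBFOX2 peak, at chr6:26522115-26522228 on the plus strand, had a log2 fold of 4.13 and a −log10 p of 7.92. Neither overlapped a peak of the other list, and neither was assigned to a gene.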
